A study of Mus musculus with 24 samples.

Results

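The genes described here are the mouse matrix metalloproteinases (MMP), the ADAMTS proteases, the ADAMTS-like proteins and the tissue inhibitors of metalloproteinases (TIMP). They were taken from the deposited expression table by their symbols, with the transcript of highest mean level kept for each symbol, which gave 51 genes of the 24016 symbols in the table: 23 MMP, 19 ADAMTS, 5 ADAMTS-like and 4 TIMP genes. Poly(A) RNA was sequenced from muscles of C57BL/6 mice on day 7 after the femoral artery of 1 leg had been tied, which starves the lower limb of blood. The 24 libraries form 4 groups of 6: ischemic gastrocnemius (calf) muscle of type 2 diabetic mice, ischemic gastrocnemius of control mice, normoxic adductor (thigh) muscle of type 2 diabetic mice, and normoxic adductor of control mice. In all groups the artery had been tied and no unligated muscle is among the libraries, so the muscle and its blood supply cannot be told apart. The labels name no agent, diet or allele for the diabetes, and do not tie the replicate numbers of adductor and gastrocnemius libraries to animals, so a p-value covers no more than the spread of these libraries.

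MMPs are zinc proteases that cut collagens, basement membrane and other matrix proteins. They are made as inactive precursors and are blocked by TIMPs, which bind the active site of the mature enzyme. The ADAMTS enzymes are secreted relatives that carry thrombospondin repeats and trim procollagens and proteoglycans, while the ADAMTS-like proteins keep the repeats and lack the protease. In ischemic limbs this group of genes is known for matrix breakdown around growing vessels and during the repair of muscle fibres.

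Of the 51 genes, 10 MMP genes sit side by side on chromosome 9 (chr9:7272514-7699416, mm9), and no other symbol of the table lies between them. Their order is Mmp13, Mmp12, Mmp1b, Mmp3, Mmp1a, Mmp10, Mmp8, Mmp27, Mmp20 and Mmp7. The AP-1 motif, bound by Fos and Jun proteins, is a textbook feature of promoters in this cluster. RefSeq promoter windows of build GRCm38.p6, from 250 bases before to 50 bases after the start, were found for 36 of the 51 genes. The motif searched was TGANTCA, with any base allowed at N. It is its own reverse complement, so that 1 search covers both strands, and no other motif was searched. The motif occurs in 7.81% of all 32851 windows of the same length, and in 8 of the 39 windows of the 36 genes. These windows belong to 8 genes, all in the cluster: Mmp13, Mmp12, Mmp1b, Mmp3, Mmp1a, Mmp10, Mmp20 and Mmp7. Mmp20 matches as TGAATCA, and the others as TGACTCA or TGAGTCA. The other cluster genes, Mmp8 and Mmp27, have windows without a match. A match is a description of the sequence, not a site of binding.

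Whole windows are shown for the cluster genes that reached the level needed for testing, with the motif in capitals. They are Mmp13 (chr9:7272264-7272563, plus strand), the second of the 2 windows of Mmp12 (chr9:7347124-7347423, plus strand) and Mmp3 (chr9:7445572-7445871, plus strand). The first base of the motif lies at -35 in Mmp13, -44 in Mmp12 and -46 in Mmp3, counted from the start.
Mmp13: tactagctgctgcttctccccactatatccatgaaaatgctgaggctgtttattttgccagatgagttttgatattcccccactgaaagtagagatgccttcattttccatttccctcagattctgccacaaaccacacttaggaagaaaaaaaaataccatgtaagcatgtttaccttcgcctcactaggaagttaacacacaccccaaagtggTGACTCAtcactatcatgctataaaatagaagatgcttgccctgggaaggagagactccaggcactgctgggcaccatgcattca
Mmp12: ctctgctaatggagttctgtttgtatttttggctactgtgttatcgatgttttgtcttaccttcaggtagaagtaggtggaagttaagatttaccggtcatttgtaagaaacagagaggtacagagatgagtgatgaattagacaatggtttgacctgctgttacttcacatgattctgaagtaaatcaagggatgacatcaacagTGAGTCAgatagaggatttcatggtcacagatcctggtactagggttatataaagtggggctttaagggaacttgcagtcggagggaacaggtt
Mmp3: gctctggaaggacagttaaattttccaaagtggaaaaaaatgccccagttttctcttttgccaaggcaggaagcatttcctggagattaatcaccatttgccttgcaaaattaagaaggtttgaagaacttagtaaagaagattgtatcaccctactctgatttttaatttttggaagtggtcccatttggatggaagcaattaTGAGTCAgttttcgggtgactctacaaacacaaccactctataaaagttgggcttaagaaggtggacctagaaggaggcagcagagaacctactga

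For comparison, the motif with 10 bases on either side is shown for the other 5 genes, which also match the motif and had little or no RNA here. The first base of the motif lies at -93 in Mmp1b, -73 in Mmp1a, -63 in Mmp10, -95 in Mmp20 and -63 in the first window of Mmp7.
Mmp1b: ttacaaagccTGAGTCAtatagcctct
Mmp1a: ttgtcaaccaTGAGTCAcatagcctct
Mmp10: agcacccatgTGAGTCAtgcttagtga
Mmp20: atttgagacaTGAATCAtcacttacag
Mmp7: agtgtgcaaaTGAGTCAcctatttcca

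Library totals ran from 7.13 to 15.6 M reads, and a floor of 3 reads on a transcript of 1 kb corresponds to 0.192 RPKM in the deepest and 0.421 RPKM in the shallowest library (RPKM scales reads by exon length in kilobases and by the library total in M reads). Such floors cover counting error only. Gapdh, a housekeeping gene, divided the libraries into 2 sets for which no label was found. In 1 set, 14 libraries had 677 to 1757 RPKM of it (control libraries 1 to 3 and diabetic libraries 1 to 4 in both muscles). In the other, 10 libraries had 0.365 to 13.7 RPKM, and both sets hold libraries of every group. Within this low-Gapdh set the mouse groups did not overlap in Gapdh. It was 0.365 to 0.831 RPKM in control libraries 4 to 6 and 3.71 to 13.7 RPKM in diabetic libraries 5 and 6. A diabetes difference within that set cannot be told apart from this split. The skeletal myofibre markers (8 genes such as Ckm and Acta1) summed to 17756 to 53199 RPKM in diabetic gastrocnemius, 13571 to 50756 in control gastrocnemius, 36546 to 74941 in diabetic adductor and 44877 to 78570 in control adductor, so skeletal muscle RNA was present in each library; the sums overlap between the muscles and do not tell them apart. For the genes described here, 3 libraries stood apart from their groups: diabetic gastrocnemius 2 and control gastrocnemius 3, with low Timp1, and control adductor 2, with high Mmp14 and Mmp2.

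Of the 51 genes, 50 had reads in at least 1 library, and 29 reached 1 RPKM in at least 6 libraries, the level set for testing. This is 56.9% of the genes, beside 51.6% of all symbols. The 29 were 11 of 23 MMP, 10 of 19 ADAMTS, 4 of 5 ADAMTS-like and 4 of 4 TIMP genes. In diabetic gastrocnemius the highest levels were those of Mmp14 (134 ± 38.3 RPKM), Timp2 (119 ± 31.2), Mmp2 (89.2 ± 28.1), Timp1 (67.8 ± 39.6), Timp3 (21.0 ± 6.37) and Mmp13 (17.4 ± 9.78), each as mean ± SD with n = 6. In control gastrocnemius the first 4 were the same in the same order, at 158 ± 51.4, 142 ± 31.9, 135 ± 28.9 and 108 ± 51.5 RPKM, followed by Mmp13 (30.2 ± 14.1) and Timp3 (21.0 ± 6.42). Neighbours among the first 4 lay within 1 SD of each other in both groups. The adductor had another order: Timp3 (33.0 ± 5.71), Timp2 (31.8 ± 5.72), Mmp2 (14.7 ± 5.19) and Mmp14 (10.5 ± 2.73) led in diabetic adductor, and Timp2 (36.1 ± 12.8), Timp3 (30.9 ± 3.10), Mmp2 (19.3 ± 15.3) and Mmp14 (11.96 ± 10.2) in control adductor.

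**Figure D1:**
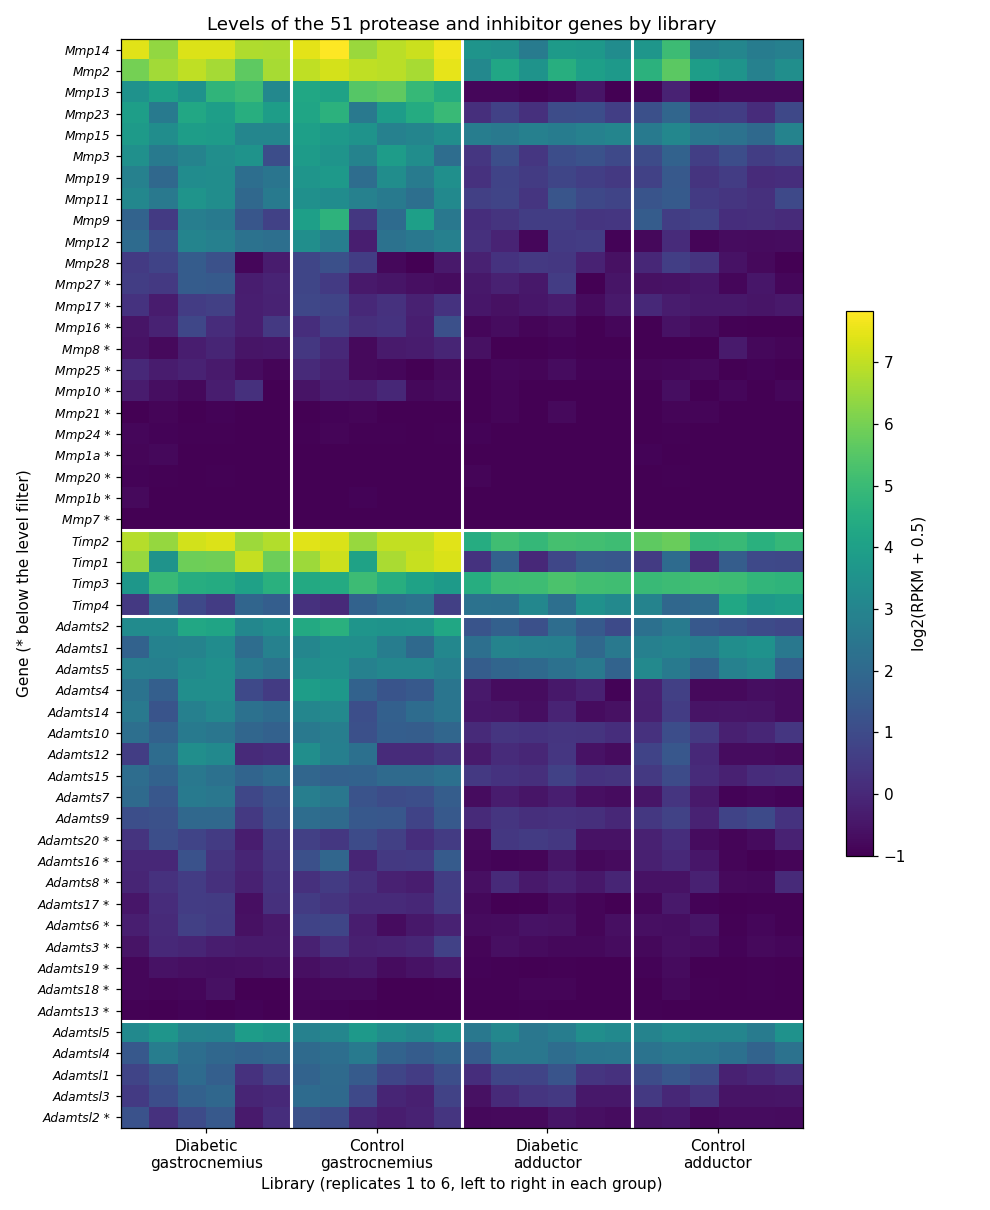
Level of each of the 51 genes (rows, by family and mean level) in each library (columns, 6 per group), as log2(RPKM + 0.5) in colour. Genes with an asterisk did not reach 1 RPKM in 6 libraries. The gastrocnemius columns are brighter for most MMP and ADAMTS rows, and the bottom MMP rows are dark in every group.

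Most of these genes had higher levels in ischemic gastrocnemius than in adductor. In diabetic mice 22 of the 29 tested genes were higher and 2 lower at an adjusted p under 0.05 (limma, Benjamini-Hochberg over 12382 genes), beside 48.1% of all tested genes higher and 8.83% lower. In control mice the counts were also 22 higher and 2 lower, beside 54.4% and 8.70% of all tested genes. In either direction, then, 24 of the 29 were called in each mouse group, beside 56.9% of all tested genes in diabetic and 63.1% in control mice. The 2 lower genes in both mouse groups were Timp3 and Timp4. RPKM values shift as a whole between the muscles: the median over all tested genes was 0.55 (log2) in diabetic mice and 0.66 in control mice, and -0.04 and -0.02 after median-of-ratios scaling. After that scaling 17 of the 29 were higher and 3 lower in diabetic mice (27.4% and 26.2% of all genes), and 17 higher and 4 lower in control mice (28.4% and 26.5%).

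The level filter bears on these counts. Of the 29 genes, 13 reached 1 RPKM in fewer than 6 adductor libraries, and so passed through the gastrocnemius, which fixes a higher level there by the choice: 12 of the 13 were called higher in each mouse group. The 13 were Adamts4, Adamts7, Adamts9, Adamts10, Adamts12, Adamts14, Adamts15, Adamtsl3, Mmp9, Mmp12, Mmp13, Mmp19 and Mmp28. Of the 16 that reached 1 RPKM in at least 6 adductor libraries, 10 were higher and 2 lower in diabetic mice, and 10 higher and 2 lower in control mice. In 17 genes every gastrocnemius library lay above every adductor library in diabetic mice, beside 29.0% of all tested genes, and in 15 genes in control mice, beside 33.3%. In either direction the counts were the same 17 and 15, beside 31.4% and 36.3% of all tested genes.

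Markers of fibroblasts, macrophages, satellite cells, and tenocytes and chondrocytes moved with the muscle, and those of some other cells did so in part or not at all. The sum of 8 fibroblast markers ran from 1428 to 4349 RPKM in diabetic gastrocnemius and 1757 to 5360.5 in control gastrocnemius, against 237 to 414 in diabetic adductor and 202 to 812 in control adductor. All 8 fibroblast markers, all 7 macrophage markers and all 6 satellite cell and myoblast markers were higher in gastrocnemius in both mouse groups, beside 48.1% and 54.4% of all tested genes in diabetic and control mice. After median-of-ratios scaling the fibroblast counts were 5 of 8 in diabetic and 6 of 8 in control mice, the macrophage counts 6 of 7 and 7 of 7, and the satellite cell counts 6 of 6 in both. The macrophage sum was 278 to 1158 and 347 to 1391 RPKM in diabetic and control gastrocnemius, against 43.4 to 92.6 and 25.6 to 224 RPKM in diabetic and control adductor. The satellite cell sum was 437 to 1029 and 531 to 922 RPKM in diabetic and control gastrocnemius, against 14.4 to 55.9 and 13.6 to 109 RPKM in diabetic and control adductor. All 4 tested tenocyte and chondrocyte markers (6 listed) were higher in both mouse groups, also after median-of-ratios scaling. The sum of the 6 was 54.2 to 85.6 and 60.2 to 93.4 RPKM in diabetic and control gastrocnemius. In diabetic and control adductor it was 3.46 to 11.9 and 3.72 to 6.74 RPKM. Of 5 adipocyte markers, 0 were higher in either mouse group and 1 was lower in control mice. In each mouse group 1 of 5 mast cell markers was higher, and 4 of 7 smooth muscle and pericyte markers were higher and 2 lower. Endothelial markers were higher in 5 of 7 in diabetic and 4 of 7 in control mice, and in 0 and 1 after median-of-ratios scaling. These counts stand beside the same 48.1% and 54.4%. No fibroblast, macrophage or satellite cell marker was at 0 in a whole group. The part of these lists in the differences below was not tested. In bulk muscle, fewer cells of a type and less RNA per cell cannot be told apart.

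**Figure D2:**
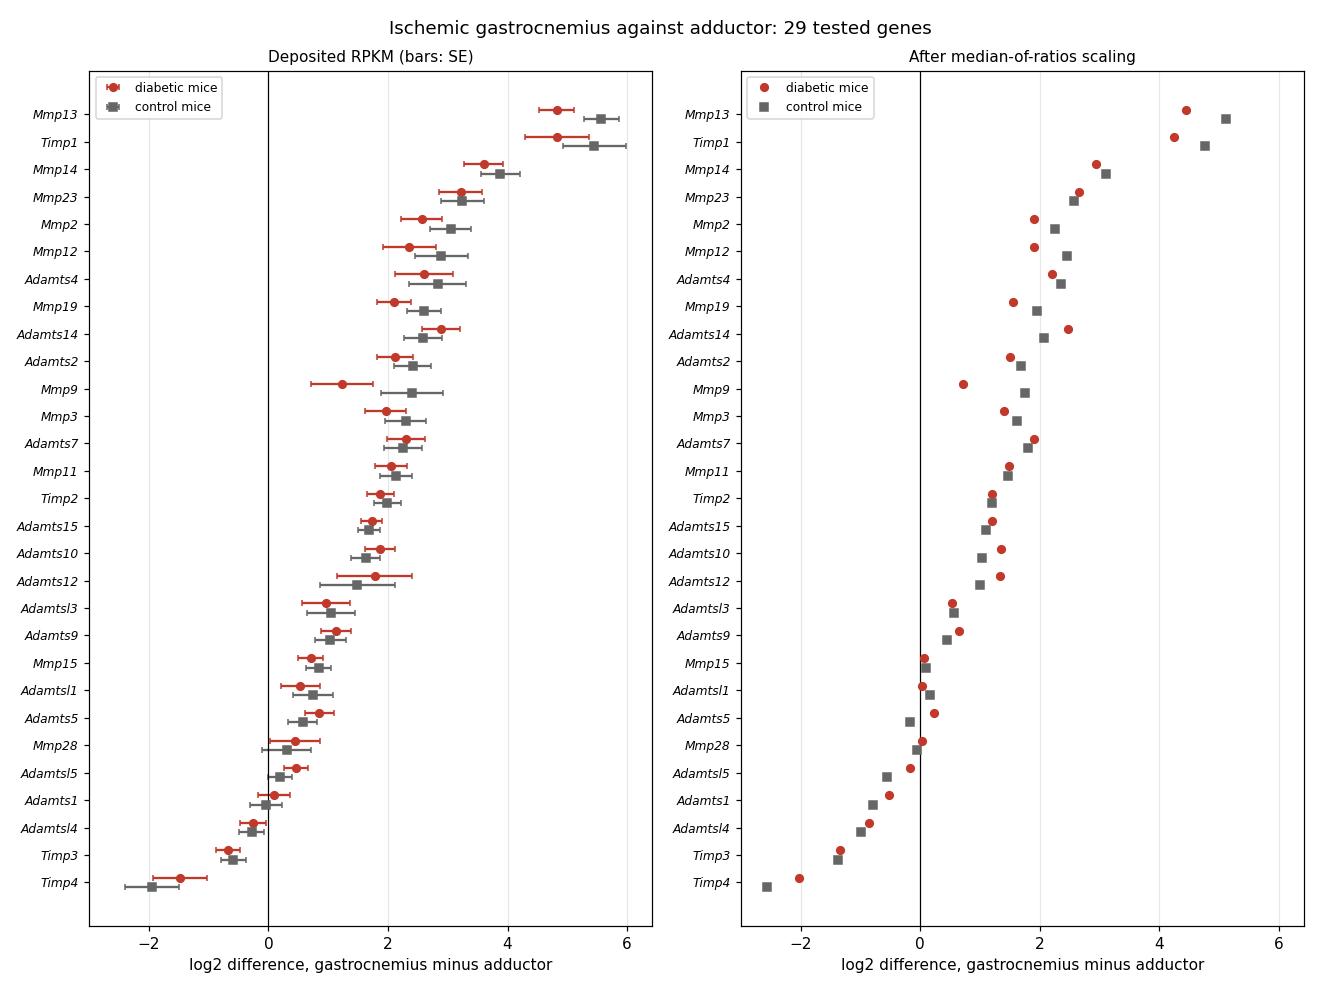
Log2 difference, gastrocnemius minus adductor, for the 29 tested genes in diabetic mice (red circles) and control mice (grey squares), on the deposited RPKM (left, bars are SE from limma) and after median-of-ratios scaling (right). Mmp13 and Timp1 lie farthest right, Timp3 and Timp4 lie left of 0 in both panels, and Adamts1 (diabetic mice), Adamts5 (control mice), Adamtsl5 (both) and Mmp28 (control mice) change sign with the scaling.

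Mmp14 and the gelatinases carried most of the MMP RNA. Mmp14 (chr14:55050441-55060095, plus strand, mm9) encodes the membrane-type enzyme that activates the precursor of MMP2 at the cell surface with the help of TIMP2. It was 83.5 RPKM at the lowest, 137 at the median and 173 at the highest in diabetic gastrocnemius, against 5.91, 10.98 and 13.5 in diabetic adductor. In control mice the lowest, median and highest were 89.7, 157 and 227 RPKM in gastrocnemius, against 6.06, 7.33 and 32.4 in adductor, the last in control adductor 2. The muscles did not overlap in either mouse group, and the log2 difference was 3.60 ± 0.33 (SE) in diabetic mice (adjusted p = 1.5e-08) and 3.88 ± 0.33 in control mice (adjusted p = 5.8e-09).

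Mmp2 (chr8:95351227-95377319, plus strand, mm9) encodes gelatinase A, which cuts denatured collagen and type IV collagen. Its lowest, median and highest levels were 49.8, 97.6 and 126 RPKM in diabetic gastrocnemius, against 8.25, 14.0 and 22.7 in diabetic adductor. In control mice they were 101, 126 and 183 RPKM in gastrocnemius, against 6.88, 13.1 and 47.7 in adductor. The muscles again did not overlap, and the log2 difference was 2.56 ± 0.34 in diabetic mice (adjusted p = 1.6e-06) and 3.05 ± 0.34 in control mice (adjusted p = 1.4e-07). Together Mmp14 and Mmp2 made up 74.2 ± 5.89% and 72.8 ± 3.81% of the summed MMP RPKM in diabetic and control gastrocnemius, against 63.7 ± 3.99% and 66.0 ± 7.49% in diabetic and control adductor (SD, n = 6). The sum itself was 301 ± 64.7 and 399 ± 82.8 RPKM in diabetic and control gastrocnemius, against 39.2 ± 8.81 and 44.8 ± 30.3 RPKM in diabetic and control adductor.

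Mmp9 (chr2:164773719-164781349, plus strand, mm9), which encodes gelatinase B, an enzyme stored by neutrophils and also made by macrophages, was less abundant and spread widely. Its lowest, median and highest levels were 0.904, 2.56 and 6.30 RPKM in diabetic gastrocnemius, against 0.614, 0.792 and 1.03 in diabetic adductor. In control mice they were 0.864, 10.3 and 25.4 RPKM in gastrocnemius, against 0.561, 0.840 and 2.46 in adductor. In each mouse group 5 of 6 gastrocnemius libraries lay above all adductor libraries. Mmp9 passed the level filter through the gastrocnemius, with fewer than 6 adductor libraries at 1 RPKM. Its log2 difference was 1.23 ± 0.52 in diabetic mice (adjusted p = 0.048) and 2.40 ± 0.52 in control mice (adjusted p = 0.00034), and the call in diabetic mice held in 8 of 24 fits that each left out 1 library and was lost after median-of-ratios scaling (0.72, adjusted p = 0.20). None of the 3 neutrophil markers that could be tested, of 7, was called in either mouse group. The sum of the 7 was 1.7 to 10.3 and 1.5 to 19.7 RPKM in diabetic and control gastrocnemius, against 1.8 to 10.7 and 2.0 to 13.5 RPKM in diabetic and control adductor.

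**Figure D3:**
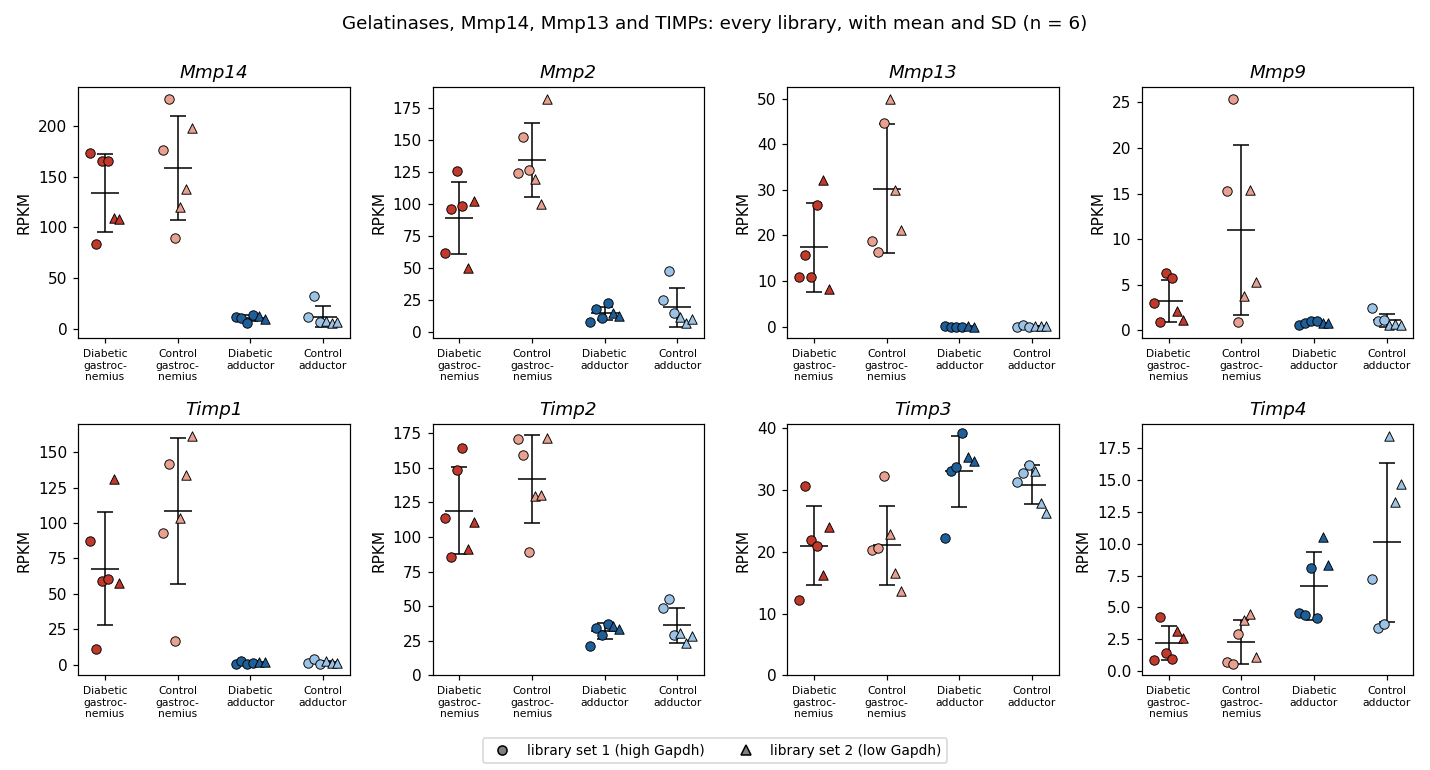
RPKM of 8 genes in every library, by group, with the mean and SD (n = 6). Circles are libraries of the set with high Gapdh and triangles those of the set with low Gapdh. Mmp14, Mmp2, Mmp13, Timp1 and Timp2 are separate between gastrocnemius and adductor in both mouse groups, Mmp9 spreads widely in control gastrocnemius, and Timp3 and Timp4 are lower in gastrocnemius with overlap.

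Of the 4 collagenase genes, which encode enzymes able to cut native fibrillar collagen, only Mmp13 was tested. Mmp13 encodes collagenase 3, the principal interstitial collagenase of rodents. Its lowest, median and highest levels were 8.18, 13.3 and 32.2 RPKM in diabetic gastrocnemius, against 0, 0.0536 and 0.210 RPKM in diabetic adductor. In control mice they were 16.5, 25.6 and 50.0 RPKM in gastrocnemius, against 0, 0.0707 and 0.392 RPKM in adductor. The adductor values rest on very few reads: 12 in all 6 diabetic adductor libraries, against 3226 in diabetic gastrocnemius, and 22 in control adductor, 15 of them in control adductor 2, against 5896 in control gastrocnemius. The fitted log2 difference was 4.82 ± 0.30 in diabetic mice (adjusted p = 2.6e-10) and 5.57 ± 0.30 in control mice (adjusted p = 1.2e-11), on a scale that the added 0.5 RPKM compresses for a gene so near 0 in adductor. Mmp13 passed the level filter through the gastrocnemius alone, so a higher level there was fixed by the choice.

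The other collagenases were scarce. Mmp8, the neutrophil collagenase, reached 0.450 RPKM in diabetic and 0.835 RPKM in control gastrocnemius at most, against 0.159 RPKM in diabetic and 0.275 in control adductor. Mmp1a and Mmp1b had 4 and 3 reads in all 24 libraries together. Their promoters also match the AP-1 motif, as does that of Mmp13.

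Among the stromelysins and the macrophage elastase, 3 genes were tested and all 3 were higher in gastrocnemius in both mouse groups, beside 48.1% and 54.4% of all tested genes in diabetic and control mice. One of them, Mmp12, passed the filter through the gastrocnemius alone. Mmp3 (stromelysin 1, which cuts proteoglycans and activates other MMP precursors) had a lowest, median and highest level of 1.64, 8.40 and 11.005 RPKM in diabetic gastrocnemius, against 0.823, 1.52 and 1.81 in diabetic adductor. In control mice these were 3.998, 10.4 and 14.2 RPKM in gastrocnemius, against 1.03, 1.40 and 2.91 in adductor. The muscles overlapped in diabetic mice, through 1 gastrocnemius library, and not in control mice. The log2 difference was 1.96 ± 0.34 in diabetic mice (adjusted p = 4e-05) and 2.30 ± 0.34 in control mice (adjusted p = 4.8e-06).

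Mmp11 (stromelysin 3, activated inside the cell by furin) had a lowest, median and highest level of 3.47, 6.86 and 11.4 RPKM in diabetic gastrocnemius, against 0.778, 1.25 and 2.01 in diabetic adductor. The control values were 4.15, 7.75 and 10.2 RPKM in gastrocnemius, against 0.663, 1.16 and 2.30 in adductor. The muscles did not overlap, with log2 differences of 2.06 ± 0.27 in diabetic mice (adjusted p = 1.2e-06) and 2.13 ± 0.27 in control mice (adjusted p = 5.8e-07).

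Mmp12 (macrophage elastase) had a lowest, median and highest level of 1.63, 4.35 and 7.44 RPKM in diabetic gastrocnemius, against 0.0322, 0.540 and 0.998 in diabetic adductor. Control mice had 0.329, 5.79 and 9.75 RPKM in gastrocnemius, against 0.0418, 0.105 and 0.562 in adductor. The low value of 0.329 was that of control gastrocnemius 3, which alone kept the muscles from separating in control mice. Its log2 difference was 2.36 ± 0.44 in diabetic mice (adjusted p = 9.4e-05) and 2.89 ± 0.44 in control mice (adjusted p = 6.7e-06). Without the 3 libraries that stood apart these were 2.59 (adjusted p = 5.3e-08) and 3.54 (adjusted p = 8.8e-10). In the same role class, Mmp10 (stromelysin 2) stayed at or below 0.663 RPKM and Mmp7 (matrilysin) had no read in any library.

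The other membrane-type and secreted MMPs differed in extent. Mmp15, the second membrane-type enzyme that reached the level for testing, had a lowest, median and highest level of 7.83, 11.6 and 14.4 RPKM in diabetic gastrocnemius, against 5.47, 6.43 and 7.64 in diabetic adductor, and 6.88, 10.5 and 15.3 RPKM in control gastrocnemius, against 3.59, 5.35 and 7.94 in control adductor. Its log2 differences of 0.71 ± 0.21 in diabetic mice (adjusted p = 0.0058) and 0.84 ± 0.21 in control mice (adjusted p = 0.0013) were near the shift of all genes, and after median-of-ratios scaling they were 0.07 and 0.09 (adjusted p = 0.74 and 0.66).

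Mmp23, a small MMP without the usual hemopexin domain, had a lowest, median and highest level of 5.54, 15.0 and 22.9 RPKM in diabetic gastrocnemius, against 0.653, 1.09 and 1.65 in diabetic adductor. In control mice these were 5.38, 19.2 and 31.1 RPKM in gastrocnemius, against 0.584, 1.19 and 3.27 in adductor. The muscles did not overlap, with log2 differences of 3.22 ± 0.36 in diabetic mice (adjusted p = 1.4e-07) and 3.24 ± 0.36 in control mice (adjusted p = 1.1e-07).

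Mmp19, a basement membrane-cutting enzyme, was 3.44, 5.90 and 9.65 RPKM at the lowest, median and highest in diabetic gastrocnemius, against 0.690, 1.007 and 1.31 in diabetic adductor, and 3.98, 9.78 and 13.2 RPKM in control gastrocnemius, against 0.568, 0.879 and 2.28 in control adductor. Its muscles did not overlap either, and the log2 difference was 2.09 ± 0.28 in diabetic mice (adjusted p = 1.7e-06) and 2.60 ± 0.28 in control mice (adjusted p = 8.8e-08). Mmp19 also passed the level filter through the gastrocnemius, with fewer than 6 adductor libraries at 1 RPKM. Its span overlaps that of Tmem198b on the opposite strand, and no strand option was recorded for the counting. Whether their exons overlap was not examined, so a mixing of their reads was not tested. Mmp28 (epilysin) was not called in either mouse group, with log2 differences of 0.44 ± 0.42 and 0.30 ± 0.42 in diabetic and control mice. In gastrocnemius it was 0.902 to 2.47 RPKM in the high-Gapdh set and 0.0553 to 0.304 in the low-Gapdh set of diabetic mice, and 1.03 to 1.72 against 0 to 0.252 RPKM in the same sets of control mice.

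The 4 inhibitors went in opposite directions. Timp1 (chrX:20448160-20451863, plus strand, mm9), the inducible soluble inhibitor, had a lowest, median and highest level of 11.1, 59.7 and 131 RPKM in diabetic gastrocnemius, against 0.5003, 1.75 and 2.83 in diabetic adductor. The control values were 16.6, 119 and 161 RPKM in gastrocnemius, against 0.582, 1.41 and 3.78 in adductor. No library of one muscle reached into the range of the other, although diabetic gastrocnemius 2 and control gastrocnemius 3 lay far below the rest of their groups. The log2 difference was 4.82 ± 0.53 in diabetic mice (adjusted p = 1.2e-07) and 5.45 ± 0.53 in control mice (adjusted p = 2.8e-08). Without the 3 libraries that stood apart it was 5.27 in diabetic mice and 6.14 in control mice.

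Timp2 (chr11:118162375-118216725, minus strand, mm9), the inhibitor that also takes part in the activation of MMP2, had a lowest, median and highest level of 85.7, 112 and 164 RPKM in diabetic gastrocnemius, against 21.5, 33.7 and 37.2 in diabetic adductor. Control mice had 88.7, 145 and 171 RPKM in gastrocnemius, against 23.7, 30.0 and 55.3 in adductor. The muscles did not overlap, with log2 differences of 1.87 ± 0.23 in diabetic mice (adjusted p = 4.1e-07) and 1.99 ± 0.23 in control mice (adjusted p = 1.5e-07), and 1.20 in both after median-of-ratios scaling.

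Timp3 (chr10:85763157-85812250, plus strand, mm9), the matrix-bound inhibitor that also blocks ADAM and ADAMTS enzymes, was lower in gastrocnemius. Its lowest, median and highest levels were 12.1, 21.4 and 30.6 RPKM in diabetic gastrocnemius, against 22.2, 34.1 and 39.2 in diabetic adductor. In control mice they were 13.6, 20.4 and 32.3 RPKM in gastrocnemius, against 26.3, 32.0 and 34.0 in adductor. The ranges overlapped, with 4 of 6 gastrocnemius libraries below all adductor libraries in diabetic mice and 5 of 6 in control mice. It fell by 0.68 ± 0.21 on the log2 scale in diabetic mice (adjusted p = 0.0068) and by 0.59 ± 0.21 in control mice (adjusted p = 0.016). Relative to all genes the difference was larger, at -1.34 and -1.37 after median-of-ratios scaling. The call in control mice was lost without control gastrocnemius 6 (adjusted p = 0.051).

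Timp4 (chr6:115195634-115201867, minus strand, mm9), an inhibitor known from heart and skeletal muscle, had a lowest, median and highest level of 0.883, 2.01 and 4.21 RPKM in diabetic gastrocnemius, against 4.18, 6.33 and 10.5 in diabetic adductor. In control mice these were 0.543, 2.02 and 4.50 RPKM in gastrocnemius, against 3.36, 10.3 and 18.5 in adductor. Of 6 gastrocnemius libraries, 5 lay below all adductor libraries in diabetic mice and 4 in control mice. It fell by 1.48 ± 0.45 in diabetic mice (adjusted p = 0.0075) and by 1.94 ± 0.45 in control mice (adjusted p = 0.00069) on the log2 scale. Of the 8 myofibre markers, 4 were lower and 0 higher in diabetic mice, and 5 lower and 0 higher in control mice. Their part in the Timp3 and Timp4 differences was not tested.

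Timp1, Timp3 and Timp4 each overlap a synapsin gene on the opposite strand, and Timp2 overlaps BC100451 on its own strand. Syn1 stayed at or below 1.15 RPKM, Syn2 at or below 3.74 and Syn3 at or below 0.134 in every library. Syn2, the partner of Timp4, was 1.29 to 3.74 and 1.68 to 3.42 RPKM in diabetic and control gastrocnemius, against 0.0202 to 0.189 and 0.0482 to 0.471 RPKM in diabetic and control adductor. In gastrocnemius this is in the range of Timp4 itself, 0.883 to 4.21 and 0.543 to 4.50 RPKM in diabetic and control mice. The level of BC100451 is not given here. Whether exons of these pairs overlap was not examined, so a mixing of their reads was not tested.

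The make-up of the TIMP RNA differed between the muscles. Timp1 made up 30.5 ± 15.6% and 37.0 ± 13.4% of the summed TIMP RPKM in diabetic and control gastrocnemius, against 2.18 ± 1.12% and 2.16 ± 1.18% in diabetic and control adductor (SD, n = 6). Timp3 made up 10.98 ± 6.43% and 9.17 ± 6.96% in diabetic and control gastrocnemius, against 45.2 ± 2.06% and 39.7 ± 5.90% in diabetic and control adductor. Timp2 was a large share throughout, at 57.3 ± 10.9% and 52.9 ± 6.94% in diabetic and control gastrocnemius, against 43.5 ± 1.90% and 44.9 ± 9.65% in diabetic and control adductor.

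**Figure D4:**
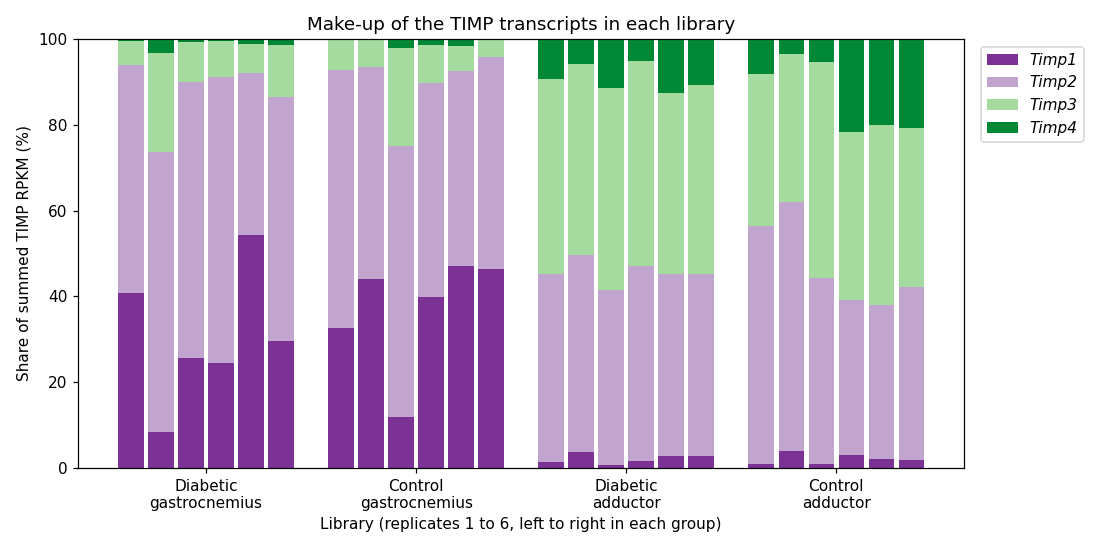
Share of each TIMP gene in the summed TIMP RPKM of each library (6 bars per group, in percent). The Timp1 share is 8.47 to 54.2% in diabetic gastrocnemius and 11.8 to 47.0% in control gastrocnemius, against 0.700 to 3.81% in diabetic adductor and 0.861 to 3.97% in control adductor.

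Of the ADAMTS genes, 9 of the 10 tested were higher in gastrocnemius in each mouse group and none was lower, beside 48.1% and 54.4% of all tested genes higher in diabetic and control mice. After median-of-ratios scaling 7 were higher and 0 lower in diabetic mice, and 6 higher and 1 lower in control mice. The level filter was passed through the gastrocnemius alone by 7 of the 10 (Adamts4, Adamts7, Adamts9, Adamts10, Adamts12, Adamts14 and Adamts15). Adamts2 and Adamts14 are procollagen N-proteinases, which remove the amino-terminal propeptide of fibrillar procollagens. Adamts2 had a lowest, median and highest level of 8.00, 9.51 and 19.1 RPKM in diabetic gastrocnemius, against 1.47, 2.13 and 3.97 in diabetic adductor. The control values were 11.2, 15.2 and 23.7 RPKM in gastrocnemius, against 1.35, 2.01 and 5.88 in adductor. The muscles did not overlap, with log2 differences of 2.12 ± 0.30 in diabetic mice (adjusted p = 3.5e-06) and 2.41 ± 0.30 in control mice (adjusted p = 5.3e-07).

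Adamts14, its close relative, was 1.93, 4.91 and 8.22 RPKM at the lowest, median and highest in diabetic gastrocnemius, against 0.108, 0.180 and 0.422 in diabetic adductor, and 1.67, 4.34 and 8.36 RPKM in control gastrocnemius, against 0.114, 0.201 and 0.997 in control adductor. No adductor library reached 1 RPKM. Its log2 difference was 2.88 ± 0.32 in diabetic mice (adjusted p = 1.3e-07) and 2.58 ± 0.32 in control mice (adjusted p = 4.3e-07). Adamts3, the third enzyme of this kind, stayed below the level for testing, with medians of 0.298 and 0.430 RPKM in diabetic and control gastrocnemius, against 0.0841 and 0.0784 RPKM in diabetic and control adductor.

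Among the proteoglycan-cleaving enzymes, which cut aggrecan and versican, 4 of 5 tested genes were higher in each mouse group (beside the same 48.1% and 54.4%), and Adamts4, Adamts9 and Adamts15 of these passed the filter through the gastrocnemius alone. After median-of-ratios scaling 3 were higher in diabetic mice, and 2 higher and 1 lower, Adamts1, in control mice. Adamts4 had a lowest, median and highest level of 0.955, 3.62 and 9.90 RPKM in diabetic gastrocnemius, against 0.0316, 0.177 and 0.368 in diabetic adductor. Control mice had 1.95, 3.89 and 14.47 RPKM in gastrocnemius, against 0.0786, 0.117 and 1.10 in adductor. The muscles did not overlap, with log2 differences of 2.60 ± 0.48 in diabetic mice (adjusted p = 7.3e-05) and 2.83 ± 0.48 in control mice (adjusted p = 2.2e-05).

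Adamts5, the other main aggrecanase, was 4.53, 6.57 and 10.1 RPKM at the lowest, median and highest in diabetic gastrocnemius, against 2.51, 3.33 and 5.37 in diabetic adductor, and 6.56, 7.96 and 10.3 RPKM in control gastrocnemius, against 2.65, 6.23 and 8.496 in control adductor. Its ranges overlapped. The log2 difference was 0.85 ± 0.25 in diabetic mice (adjusted p = 0.0051) and 0.57 ± 0.25 in control mice (adjusted p = 0.047), the second of which was called in 11 of 24 fits that left out 1 library. Neither call was kept after median-of-ratios scaling, with 0.24 (adjusted p = 0.39) in diabetic mice and -0.17 (adjusted p = 0.55) in control mice.

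Adamts1, the most abundant gene of this kind over all libraries, was not called: its lowest, median and highest levels were 2.90, 6.88 and 9.30 RPKM in diabetic gastrocnemius, against 3.46, 5.99 and 7.27 in diabetic adductor, and 3.57, 7.85 and 9.99 RPKM in control gastrocnemius, against 5.29, 7.03 and 10.9 in control adductor. Its log2 difference of 0.10 ± 0.26 in diabetic mice and -0.04 ± 0.26 in control mice became -0.53 (adjusted p = 0.074) and -0.79 (adjusted p = 0.0086) after median-of-ratios scaling. Adamts15 (log2 differences of 1.72 ± 0.18 in diabetic and 1.68 ± 0.18 in control mice) was higher with no overlap. Adamts9 was higher by 1.13 ± 0.25 in diabetic and 1.04 ± 0.25 in control mice, which became 0.65 (adjusted p = 0.0075) and 0.44 (adjusted p = 0.060, no longer called) after median-of-ratios scaling.

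Adamts7, Adamts10 and Adamts12, the remaining tested ADAMTS genes, passed the filter through the gastrocnemius alone, so that a higher level there was largely fixed by the choice. Adamts7 and Adamts12 encode enzymes that cut cartilage oligomeric matrix protein, and ADAMTS10 is linked to fibrillin microfibrils. Adamts10 had log2 differences of 1.86 ± 0.25 in diabetic mice (adjusted p = 1.4e-06) and 1.63 ± 0.25 in control mice (adjusted p = 6.2e-06), from medians of 3.75 and 2.97 RPKM in diabetic and control gastrocnemius, against 0.734 and 0.763 RPKM in diabetic and control adductor. Adamts7 had log2 differences of 2.30 ± 0.32 in diabetic mice (adjusted p = 2.6e-06) and 2.25 ± 0.32 in control mice (adjusted p = 2.7e-06).

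Adamts12 divided by library set in all 4 groups. In gastrocnemius of both mouse groups, 5 of the 29 tested genes had every high-Gapdh library above every low-Gapdh library: Adamts12, Adamtsl1, Adamtsl3, Mmp15 and Mmp28. No share over all tested genes stands beside this count, so it cannot be read as particular to these genes. Adamts12 in gastrocnemius was 1.03 to 9.77 RPKM in the high-Gapdh set and 0.533 to 0.607 in the low-Gapdh set of diabetic mice, and 4.24 to 9.87 against 0.560 to 0.748 RPKM in the corresponding sets of control mice. Its log2 difference between muscles was 1.78 ± 0.63 in diabetic mice (adjusted p = 0.019) and 1.49 ± 0.63 in control mice (adjusted p = 0.043). Within the sets it was 2.30 and 0.73 in diabetic mice and 2.08 and 0.90 in control mice, each first for the high-Gapdh set. After median-of-ratios scaling neither call was kept (adjusted p = 0.053 and 0.15 in diabetic and control mice).

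Few of the ADAMTS-like genes were called between the muscles. These secreted proteins have no protease domain, and several bind fibrillin. Only Adamtsl3 was called, with log2 differences of 0.96 ± 0.40 in diabetic mice (adjusted p = 0.046) and 1.05 ± 0.40 in control mice (adjusted p = 0.026), called in 14 and 19 of 24 fits that left out 1 library. That is 1 of 4 tested genes, beside 48.1% and 54.4% of all tested genes higher in diabetic and control mice. Adamtsl3 passed the filter through the gastrocnemius alone, so a higher level there was largely fixed by the choice. In gastrocnemius its level was 0.904 to 3.33 RPKM in the high-Gapdh set and 0.438 to 0.520 in the low-Gapdh set of diabetic mice, and 1.41 to 3.76 against 0.356 to 1.19 RPKM in the same sets of control mice. Neither call was kept without the 3 libraries that stood apart (adjusted p = 0.088 and 0.053), nor after median-of-ratios scaling (0.53 and 0.57, adjusted p = 0.21 and 0.18).

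Adamtsl4 had a lowest, median and highest level of 2.18, 3.34 and 6.22 RPKM in diabetic gastrocnemius, against 2.41, 4.93 and 5.22 in diabetic adductor, and 2.48, 3.36 and 5.73 RPKM in control gastrocnemius, against 3.02, 4.56 and 5.35 in control adductor. The difference of -0.26 ± 0.21 in diabetic mice and -0.28 ± 0.21 in control mice was not called. After median-of-ratios scaling it was -0.85 (adjusted p = 0.0021) and -0.99 (adjusted p = 0.00055).

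Adamtsl5, the most abundant gene of this family, had medians of 10.1 and 8.76 RPKM in diabetic and control gastrocnemius, against 7.10 and 7.60 RPKM in diabetic and control adductor. Its log2 differences of 0.46 ± 0.20 and 0.19 ± 0.20 in diabetic and control mice missed the threshold and became -0.17 and -0.56 after median-of-ratios scaling. Adamtsl1 was at 0.54 ± 0.33 in diabetic mice and 0.74 ± 0.33 in control mice. With the replicate number as a block, Adamtsl1 was called in both mouse groups (adjusted p = 0.042 and 0.0055) and Adamtsl5 in diabetic mice (adjusted p = 0.0086).

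The 22 genes below the level for testing were also read without that filter. Without it, 36.2% and 39.1% of 21039 genes were higher in gastrocnemius in diabetic and control mice (limma, adjusted p under 0.05). The shares that were lower were 5.48% and 5.54%. The 21039 genes include the 12382 that passed the filter, so these are not the shares of equally low genes. Of the 22 genes, 21 had reads. Of these 21, 13 were higher in gastrocnemius in diabetic mice and 12 in control mice, and none was lower (the same test). Adamts16 showed the largest log2 difference among them in control mice, at 1.49 ± 0.28 (adjusted p = 0.00015), with a lowest, median and highest level of 0.432, 1.33 and 3.31 RPKM in control gastrocnemius, against 0, 0.133 and 0.520 in control adductor. Adamtsl2 showed the largest in diabetic mice, at 1.33 ± 0.27 (adjusted p = 0.00034), with 0.276, 1.11 and 2.28 RPKM in diabetic gastrocnemius, against 0.0721, 0.0971 and 0.203 in diabetic adductor. Adamts13, the protease of von Willebrand factor, had 12 reads in all libraries together.

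Other genes of the pathway were read as lists, by counts. The plasmin system, whose proteases can activate MMP precursors, had 6 of 9 tested genes (11 listed) higher and 0 lower in each mouse group. Plaur, the urokinase receptor, was higher by 2.76 ± 0.34 in diabetic mice and 2.61 ± 0.34 in control mice on the log2 scale. Matrix substrates, such as the collagens, were higher in 11 of 11 tested genes (12 listed) in each mouse group, with Col1a1 at 4.53 ± 0.56 in diabetic mice and 4.999 ± 0.56 in control mice.

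The ADAM and astacin proteases were higher in 8 of 9 tested genes (12 listed) in each mouse group. Adam8 and Adam12, membrane-anchored proteases of leukocytes and regenerating muscle, were higher by 3.24 ± 0.49 and 3.37 ± 0.48 in diabetic mice, and by 3.75 ± 0.49 and 3.73 ± 0.48 in control mice. Other protease inhibitors were higher in 2 of 4 tested genes (7 listed) in each mouse group, Tfpi2 and Reck. Of the inducing cytokines and AP-1 genes (9 listed, 5 tested), 3 were higher in diabetic mice and 4 in control mice. Fosl1, an AP-1 subunit, was higher by 1.52 ± 0.39 in diabetic mice (adjusted p = 0.0022) and 1.35 ± 0.39 in control mice (adjusted p = 0.0047), and Junb by 1.92 ± 0.36 and 2.45 ± 0.36. These shares are to be read beside the 48.1% and 54.4% of all tested genes that were higher in diabetic and control mice.

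The second question of the design is whether diabetic and control mice differ within a muscle. None of the 29 tested genes was called between diabetic and control mice in gastrocnemius or adductor by limma (adjusted p of 1 for each), and none by voom on the recovered reads. Over all genes 0.00808% were called in gastrocnemius and 0.0323% in adductor. At an unadjusted p under 0.05 there were 2 genes in gastrocnemius, Mmp13 and Mmp9, and 1 in adductor, Adamts5. Among 29 tested genes, counts of this size can arise by chance at that threshold, and the share over all genes is not set beside them. In neither muscle did any tested gene separate diabetic from control libraries, beside 0.0323% of all genes higher and 0.0323% lower in gastrocnemius and 0.194% and 0.0242% in adductor.

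In gastrocnemius, Mmp9 averaged 3.19 ± 2.30 RPKM in diabetic mice and 10.98 ± 9.31 RPKM in control mice (SD, n = 6 each). Every diabetic library lay within the range of the control libraries, 0.864 to 25.4 RPKM. Its log2 difference was -1.32 ± 0.52 (limma, unadjusted p = 0.018, adjusted p = 1), at -1.12 within the high-Gapdh set and -1.81 within the low-Gapdh set. Within the low-Gapdh set the mouse groups are also split by their Gapdh level. Neutrophil markers, of which 3 could be tested, had a median log2 difference of -0.90 between the same groups, with no gene called: S100a8 was at -0.90 ± 0.64, S100a9 at -0.997 ± 0.64 and Cxcr2 at 0.21 ± 0.49. Their part in the Mmp9 value was not tested.

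Mmp13 averaged 17.4 ± 9.78 RPKM in diabetic gastrocnemius and 30.2 ± 14.1 RPKM in control gastrocnemius. Of the 6 diabetic libraries, 4 lay below all control libraries, and the highest, at 32.2 RPKM, lay among them. The log2 difference was -0.82 ± 0.30 (limma, unadjusted p = 0.010, adjusted p = 1), at -0.67 and -0.94 within the high-Gapdh and low-Gapdh sets. Mmp2 averaged 89.2 ± 28.1 RPKM in diabetic gastrocnemius and 135 ± 28.9 in control gastrocnemius, also with 4 of 6 diabetic libraries below all control libraries and a log2 difference of -0.63 ± 0.34 (unadjusted p = 0.079, adjusted p = 1).

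The differences in gastrocnemius, diabetic minus control, of the other genes fixed for description were -0.22 ± 0.33 for Mmp14, -0.70 ± 0.53 for Timp1, -0.26 ± 0.23 for Timp2, -0.01 ± 0.21 for Timp3 and 0.07 ± 0.45 for Timp4, where Timp3 changed sign after median-of-ratios scaling (0.054). Of the 29 tested genes, 9 had a positive difference, which is 31.0%, beside 36.7% of all tested genes. The median difference of the 29 was -0.17, beside -0.06 over all genes.

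**Figure D5:**
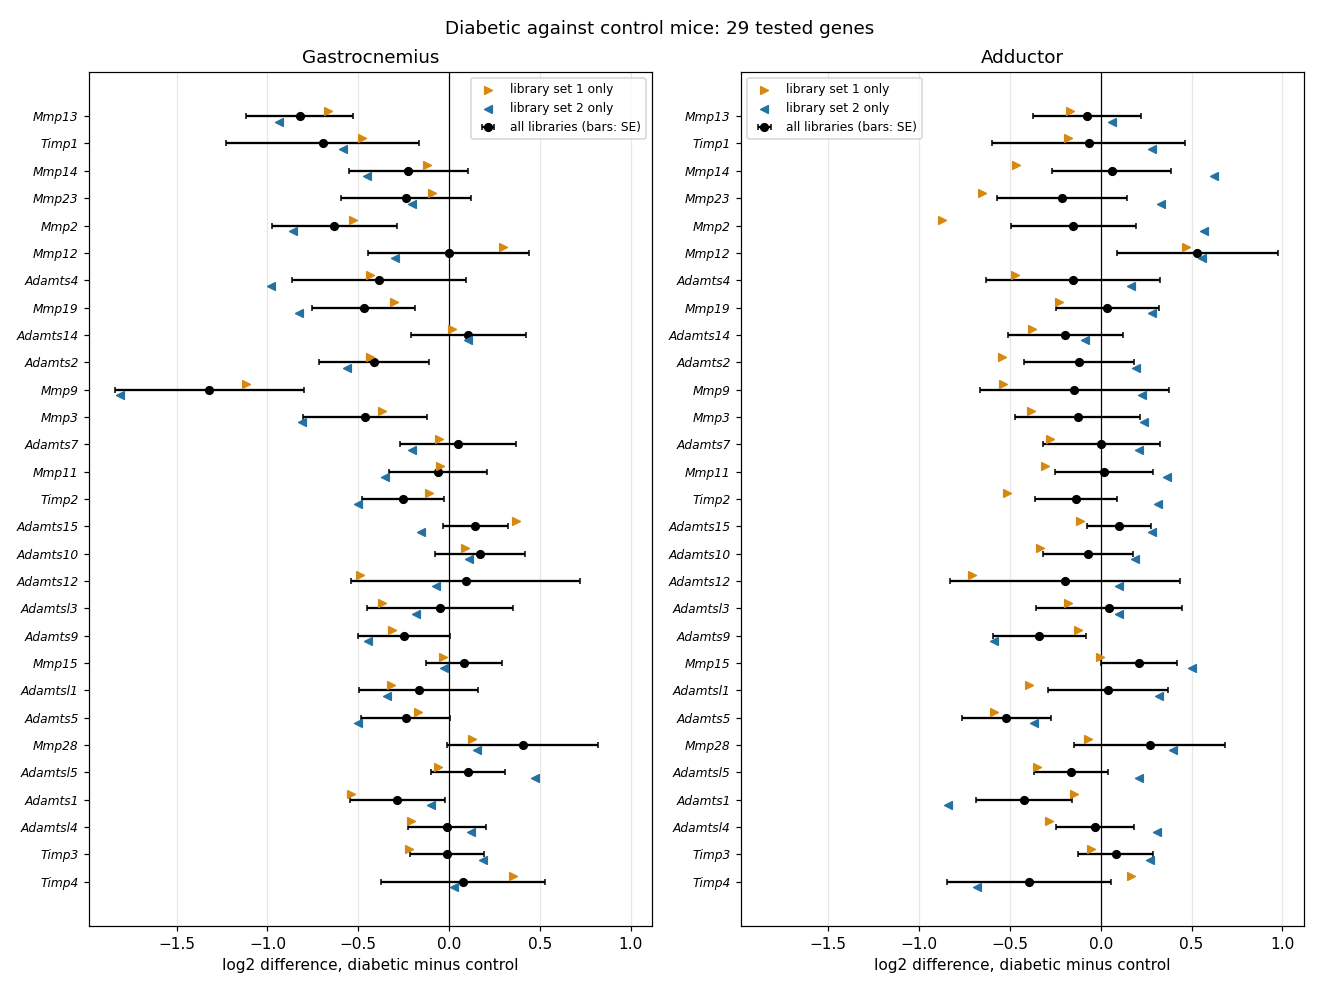
Log2 difference, diabetic minus control, for the 29 tested genes in gastrocnemius (left) and adductor (right), with SE from limma. Black circles use all libraries, orange triangles those of the high-Gapdh set (set 1) and blue triangles those of the low-Gapdh set (set 2). Mmp9 and Mmp13 lie farthest left in gastrocnemius, while in adductor the sets lie on opposite sides of 0 for most genes.

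In adductor the differences depended on the library set. With all libraries, Adamts5 averaged 3.67 ± 1.05 RPKM in diabetic mice and 5.80 ± 2.51 in control mice, a log2 difference of -0.52 ± 0.25 (unadjusted p = 0.046, adjusted p = 1), with overlapping ranges. Adamts1 (-0.42 ± 0.26) and Adamts9 (-0.34 ± 0.25) were next by p. Within the high-Gapdh set 2 of the 29 genes had a positive difference, and within the low-Gapdh set 24 of the 29 did. In the low-Gapdh set diabetic and control libraries also differ in their Gapdh level, from which these differences cannot be told apart. Mmp2, for example, was at -0.88 in the high-Gapdh set, which holds control adductor 2, and at 0.57 in the low-Gapdh set, against -0.15 ± 0.34 with all libraries. Mmp14 was at -0.47 and 0.62 in the same order, against 0.06 ± 0.33 with all libraries, and Mmp9 at -0.54 and 0.23, against -0.15 ± 0.52. The TIMP genes gave -0.07 ± 0.53 (Timp1), -0.13 ± 0.23 (Timp2), 0.08 ± 0.21 (Timp3) and -0.39 ± 0.45 (Timp4). A turn of sign between the sets was not particular to these genes. Median log2 differences in the high-Gapdh and low-Gapdh sets were -0.78 and 0.41 for fibroblast, -0.44 and 0.74 for macrophage, and -0.29 and 0.54 for endothelial markers. Neutrophil markers (0.20 and -0.32) and tenocyte and chondrocyte markers (0.07 and -0.31) went the other way.

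The difference between the muscles in the effect of diabetes was tested directly and no gene was called, neither among the 29 nor over all genes (0%). At an unadjusted p under 0.05 there was none among the 29 and 154 over all 12382 genes. Mmp13 came first by p, with a difference of effects of -0.75 ± 0.42 (gastrocnemius minus adductor, limma, unadjusted p = 0.087, adjusted p = 1). Mmp9 followed at -1.17 ± 0.74 (limma, unadjusted p = 0.12, adjusted p = 1) and Mmp19 at -0.51 ± 0.40 (limma, unadjusted p = 0.22, adjusted p = 1). The values for Mmp2, Mmp14, Timp1, Timp2, Timp3 and Timp4 were -0.48 ± 0.49, -0.28 ± 0.46, -0.63 ± 0.75, -0.12 ± 0.32, -0.09 ± 0.29 and 0.47 ± 0.64, in that order, with Timp2 and Timp3 turning positive after median-of-ratios scaling (0.0012 and 0.027).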

How the data were processed

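The authors deposited RPKM per RefSeq transcript. The header of the table records a HOMER command that counted exons, with no strand option. The submitters' processing notes list TopHat and HOMER as tools and mm9 as the build. RPKM times transcript length and library total gave whole reads within 0.01 for 99.97% of values above 0. Same-group libraries differed beyond counting noise in all 60 pairs (chi-square per degree of freedom 10.6 to 324).

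Genes with at least 1 RPKM in at least 6 libraries (12382) were fitted as log2(RPKM + 0.5) with limma 3.58.1 (R 4.3.3). The model held a mean for each of the 4 groups and a variance trend, and Benjamini-Hochberg adjustment ran over all of these genes in each comparison. Fold changes are on that log2 scale, which understates changes of low genes. The script was tested on simulated data.

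Same-numbered libraries deviated together in 12 of 12 pairs (r of 0.25 to 0.74 from the group means, -0.09 to 0.63 after removing the library set), so a replicate block was fitted as an alternative. Alternatives were other pseudocounts (0.1 and 1), filters, median-of-ratios and quantile scaling, the longest transcript, voom on recovered reads, the library sets, each library left out, and 3 libraries that stood apart removed, the last chosen after seeing the data.

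The genes, role classes and lists were chosen with earlier results of these data known. Named in full were up to 10 called genes per direction by size of difference, the 2 most abundant tested genes of each role class, Mmp2, Mmp9, Mmp14 and the 4 TIMP genes, and in the diabetes comparisons the 3 of smallest p. Promoters are from RefSeq, build GRCm38.p6.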

Additional observations from a re-analysis of the deposited data

Results flagged for a closer look

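Within 116 groups of 6 libraries (29 tested genes in 4 groups), 10 held a library whose gap to its nearest neighbour exceeded 0.625 of the group's range on the log2(RPKM + 0.5) scale, and chance gives about 1 such group in 20. Control gastrocnemius 3 was low for Timp1 (16.6 RPKM) and for Mmp12 (0.329 RPKM). Diabetic gastrocnemius 2 was low for Timp1 (11.1 RPKM) and for Mmp23 (5.54 RPKM). Control adductor 2 was high for Adamts14 (0.997 RPKM), Mmp12 (0.562 RPKM) and Mmp13 (0.392 RPKM). Diabetic adductor 1 was low for Timp3 (22.2 RPKM) and Adamtsl4 (2.41 RPKM), and diabetic adductor 5 was high for Mmp13 (0.210 RPKM, 5 reads). The causes of these values were not tested.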

How the results depend on the processing

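In gastrocnemius against adductor, the number of higher genes ran from 20 to 22 in diabetic mice and from 19 to 23 in control mice when single libraries were left out. The number of lower genes was 2 throughout in diabetic mice and 1 to 2 in control mice (1 without control gastrocnemius 6). In control mice 4 genes were lower after median-of-ratios scaling and 4 after quantile normalization, and within the first (high-Gapdh) set alone 1 was lower in diabetic and 1 in control mice. The diabetes comparisons and their difference called 0 genes in every one of these fits. With the replicate number as a block, 24 genes were higher in diabetic and 23 in control mice, through Adamtsl1 and Adamtsl5, and the block changed no other call. Leaving out libraries moved Adamts1 between -0.031 and 0.27 (diabetic mice) and between -0.13 and 0.14 (control mice).

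Signs turned for these log2 differences, none called except Adamts5 in control mice. In gastrocnemius against adductor, median-of-ratios and quantile scaling gave -0.53 and -0.56 for Adamts1 and -0.17 and -0.16 for Adamtsl5 in diabetic mice, and -0.17 and -0.14 for Adamts5 and -0.56 and -0.52 for Adamtsl5 in control mice, where the first set gave 0.42 for Adamts1. In diabetic against control gastrocnemius, Timp3 was 0.054 (median-of-ratios) and 0.053 (quantile), 0.19 in the second set and 0.0026 without the 3 libraries, which gave -0.0016 for Timp4. In diabetic against control adductor, Mmp14 was -0.028 (quantile), -0.018 (terms for the set) and -0.47 (first set). Timp1 was 0.080 (longest transcript) and 0.0095 (terms for the set), Timp3 -0.055 and Timp4 0.17 (first set). The second set gave 0.57 for Mmp2, 0.23 for Mmp9, 0.28 for Timp1 and 0.32 for Timp2, and removal of the 3 libraries 0.17 for Mmp2, 0.15 for Timp1 and 0.00053 for Timp2. For the difference of effects, the first set gave 0.35 for Mmp14, 0.35 for Mmp2 and 0.41 for Timp2, and scaling gave 0.0012 for Timp2 and 0.027 (median-of-ratios) and 0.022 (quantile) for Timp3. Single libraries left out gave -0.13 to 0.13 for Timp3, -0.16 to 0.30 for Timp4 in gastrocnemius, -0.070 to 0.40 for Mmp14, -0.38 to 0.17 for Mmp2, -0.24 to 0.056 for Mmp9, -0.25 to 0.15 for Timp1, -0.24 to 0.00053 for Timp2 in adductor, and -0.21 to 0.049 for Timp3 in the difference of effects. The causes were not tested.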
